A study of Mus musculus with 6 samples.

Results

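Desmosome and plakin genes of mouse mammary tumor cells were compared between long-term EMT and control cells. The 10 genes were listed by symbol, *Dsp*, *Dsg2*, *Dsc2*, *Pkp1*, *Pkp2*, *Pkp3*, *Jup*, *Ppl*, *Evpl* and *Perp*, and all 10 of them were found among the 18820 genes with a probe set of their own. Long-term EMT cells were EpRas cells kept for 14 days in 2 ng/ml TGF-β1 (3 arrays), and control cells were EpRas cells left untreated (3 arrays). EpRas is a single line derived from EpH4 mammary epithelium of BALB/c background that stably overexpresses Ha-Ras, so that both groups carry the oncogene. RNA was hybridized to MoGene-1_1-st-v1 arrays, and all values are log2 values after the Robust Multi-array Average (RMA). Each gene was read from its probe set with the highest mean, and only *Dsp* had a second probe set.

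Desmosomes are spot-like junctions that tie the intermediate filaments of neighbouring epithelial cells together. Desmogleins and desmocollins are the cadherins that bridge the gap between the cells. On the inner side, the armadillo proteins plakoglobin and the plakophilins bind the cadherin tails, and desmoplakin, a plakin, links them to keratin. Periplakin and envoplakin are plakins that also lie beneath the cornified envelope of squamous epithelia, and Perp is a tetraspan membrane protein that desmosomes need in stratified epithelium. In mammary gland, desmosomes join luminal and myoepithelial cells.

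The 10 genes did not all change in one direction. Of the 10 genes, 3 fell in long-term EMT cells (*Ppl*, *Perp* and *Dsp*), *Pkp2* rose, and 6 did not pass the test, which was limma over all 35556 probe sets at an adjusted p under 0.05 with a fold above 1.5. Over all 18820 genes read in this way, 1.49% fell and 1.47% rose. The groups did not overlap for 7 genes. Of these, 5 (*Ppl*, *Dsg2*, *Pkp3*, *Perp* and *Dsp*) had every long-term EMT array under every control array, as 11.5% of all genes did, and 2 (*Pkp1* and *Pkp2*) had every long-term EMT array over every control array, as 12.6% of all genes did. *Ppl*, *Perp*, *Dsp*, *Pkp3* and *Pkp2* were already known as changed on these same arrays when the genes were listed, so that these counts are not independent evidence. The median log2 fold change was -0.65 over the 10 genes and 0.02 over all genes.

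**Figure D1:**
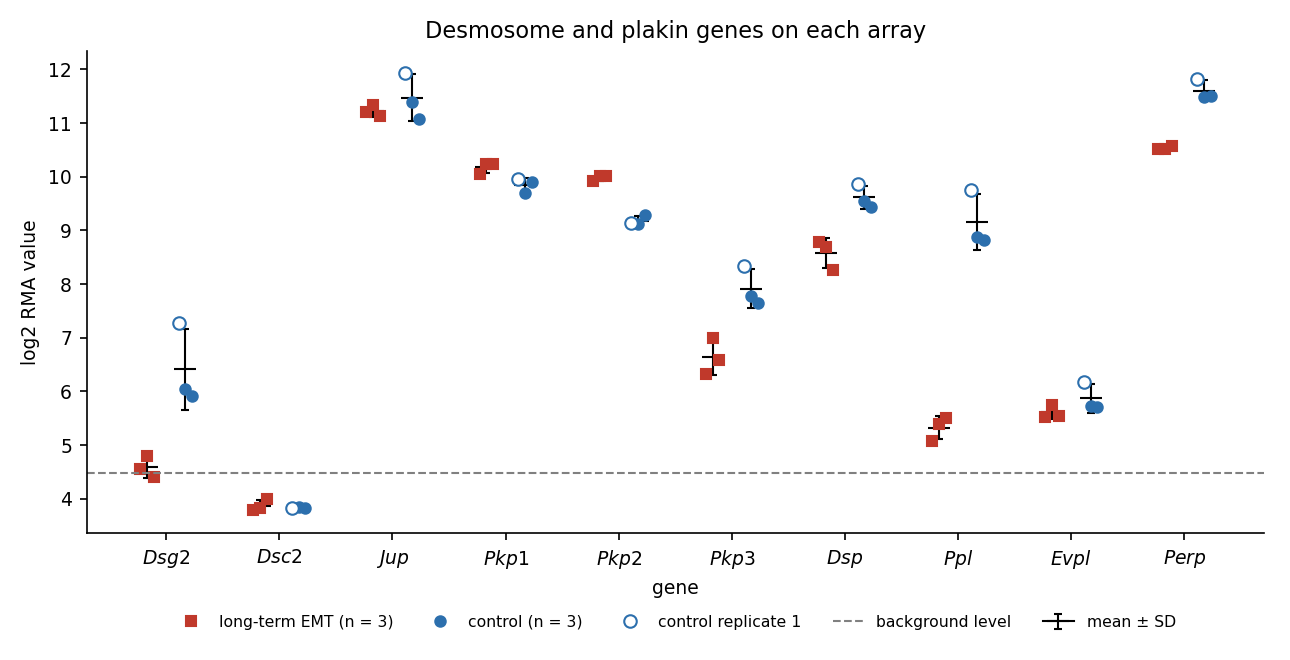
Log2 RMA value (vertical axis) of each of the 10 genes (horizontal axis) on each array, with long-term EMT cells as squares (n = 3) and control cells as circles (n = 3, control replicate 1 open), the mean and SD of each group in black, and the background level of 4.48 as a dashed line. *Ppl* shows the widest separation of the groups, *Dsc2* lies under the dashed line in both, and the open circle is the highest control for 8 of the 10 genes.

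Control replicate 1 stood apart from the other arrays, and the code in its array label also ends differently from that of the other 5, without a statement of what the code stands for. Across probe sets its values correlated at 0.984 to 0.987 with those of the other controls. Control replicates 2 and 3 correlated at 0.995 with each other, and the long-term EMT arrays at 0.993 to 0.996 among themselves. Control replicate 1 was no closer to the other controls than the long-term EMT arrays were, which correlated with those controls at 0.987 to 0.989. It was the highest control for 8 of the 10 genes, as it was for 41.7% of all genes, and lay a median of 0.42 log2 units above the mean of the other controls, against 0.01 over all genes. Without it, 3 of the 10 genes fell (*Ppl*, *Perp* and *Dsg2*) and *Pkp2* rose, where 2.13% of all genes fell and 2.00% rose, so that *Dsg2* was gained and *Dsp* was lost. The values of the 10 genes are therefore given with and without this array where they were above the background level. The background level, used here as the level of genes that these cells do not use, was set at 4.48, the 95th percentile of the mean values of 1006 olfactory receptor probe sets. Each array reads RNA from a whole population, in which fewer cells with a transcript and less of it per cell cannot be told apart. The array samples are called triplicates. The study's general statement on statistics speaks of independent experiments done in triplicate, without saying which of these the arrays are, so that separate cultures are not settled. Each p-value rests on the spread among these arrays alone, and that spread may be technical.

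*Dsg2* was the only measured desmosomal cadherin above the background level. It encodes desmoglein 2, the desmoglein of simple epithelia. Its log2 value was 4.55, 4.79 and 4.41 in long-term EMT cells, against 7.28, 6.05 and 5.91 in control cells. The highest long-term EMT array lay 1.12 below the lowest control array, and 1 of the 3 long-term EMT arrays was under the background level. The mean was 4.58 ± 0.19 in long-term EMT cells and 6.41 ± 0.75 in control cells (SD, n = 3 each), which gave a log2 fold change of -1.83, with a standard error (SE) of 0.36 and a limma adjusted p = 0.0698, which missed the threshold. The control spread lay mostly in control replicate 1, which was 1.30 above the mean of the other controls. Without it the log2 fold change was smaller, -1.40 (SE 0.13), and passed the test with a limma adjusted p = 0.00872.

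*Dsc2* encodes desmocollin 2, the desmocollin that usually pairs with desmoglein 2. Its probe set read 3.80, 3.82 and 3.99 in long-term EMT cells and 3.82, 3.85 and 3.82 in control cells, below the background level on all 6 arrays, so that no fold is given. The other desmosomal cadherins were also dim. *Dsg1b*, *Dsg1c*, *Dsg3*, *Dsg4* and *Dsc3*, the cadherins of stratified and hair epithelia, averaged less than the background level whether the cells were treated or not. In the list of 6 other desmosomal cadherins and plakophilins that were measured, 0 passed, and the median log2 fold change was -0.06. *Dsc3* and *Dsg4*, with the largest differences by value, averaged 4.11 and 3.83 in long-term EMT cells, against 4.20 and 3.91 in control cells. *Dsc1* and *Dsg1a* were not analysed here.

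*Jup* encodes plakoglobin, the armadillo protein shared by desmosomes and adherens junctions. It read 11.21, 11.33 and 11.13 in long-term EMT cells, against 11.94, 11.40 and 11.08 in control cells. The groups overlapped, since the lowest control array lay under all 3 long-term EMT arrays. The log2 fold change was -0.25 (SE 0.22, 95% interval -0.77 to 0.27, limma adjusted p = 0.722), and -0.02 without control replicate 1. A fall of up to 1.70-fold lies within the interval.

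The plakophilins, armadillo proteins that gather desmoplakin and the cadherins at the plaque, differed in the sign of their fold change. *Pkp2*, the most widely expressed of them and the plakophilin of heart and simple epithelia, read 9.92, 10.01 and 10.02 in long-term EMT cells, against 9.13, 9.12 and 9.28 in control cells. Both groups were tight, with ranges of 0.10 and 0.16, and were 0.64 apart. *Pkp2* rose 1.75-fold (log2 fold change 0.81, SE 0.08, 95% interval 0.61 to 1.00, limma adjusted p = 0.00838). Control replicate 1 did not stand out for this gene, at 0.07 under the mean of the other controls, and without it the log2 fold change was 0.78 (limma adjusted p = 0.0154). It passed in 3 of the 6 fits that each left out 1 array. The call was lost without control replicate 2 (limma adjusted p = 0.0558) and without long-term EMT replicate 2 (0.0602) or 3 (0.0536).

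*Pkp1* encodes plakophilin 1, which is prominent in stratified epithelium. It read 10.06, 10.23 and 10.23 in long-term EMT cells, against 9.95, 9.69 and 9.90 in control cells. All long-term EMT arrays were higher, by a gap of 0.11, but the log2 fold change of 0.33 (SE 0.10, 95% interval 0.08 to 0.57) did not pass, with a limma adjusted p = 0.224 and a fold under the threshold. Without control replicate 1 it was 0.38 (limma adjusted p = 0.164). *Pkp3* encodes plakophilin 3, found in most desmosome-bearing epithelia. It read 6.33, 6.99 and 6.59 in long-term EMT cells, against 8.33, 7.77 and 7.64 in control cells, a gap of 0.65 between the groups. The mean was 6.64 ± 0.33 in long-term EMT cells and 7.91 ± 0.37 in control cells (SD, n = 3 each). Its log2 fold change of -1.28 (SE 0.24, 95% interval -1.85 to -0.71) missed the threshold with a limma adjusted p = 0.0569, and without control replicate 1 it was -1.07 with a limma adjusted p = 0.0566. *Pkp4*, a p120-related relative that sits at adherens junctions as well, had a log2 fold change of -0.01.

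The plakophilins were also set against each other as differences between genes on the same array. These are given as a description, since *Pkp2* and *Pkp3* were among the genes known as changed on these arrays when the list was made. *Pkp2* minus *Pkp3* was 3.59, 3.02 and 3.43 log2 units in long-term EMT cells, against 0.80, 1.35 and 1.64 in control cells. Only the shift between groups is of use here, since probe sets differ in brightness. This shift was 2.08 log2 units for *Pkp2* against *Pkp3*, 1.60 for *Pkp1* against *Pkp3* and 0.48 for *Pkp2* against *Pkp1*, and without control replicate 1 it was 1.85, 1.45 and 0.41. The third of these shifts is the first minus the second, and no test is given, as 3 against 3 arrays cannot go below an exact permutation p = 0.10.

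**Figure D2:**
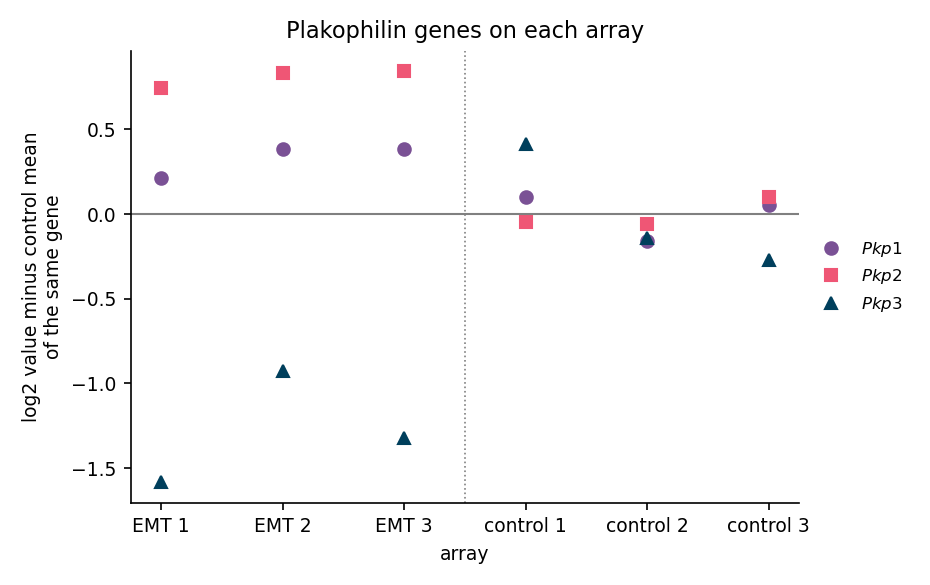
Log2 value of *Pkp1*, *Pkp2* and *Pkp3* on each array (horizontal axis, long-term EMT left of the dotted line and control right of it) minus the control mean of the same gene (vertical axis, log2 units). On the 3 long-term EMT arrays *Pkp2* and *Pkp1* lie above 0 and *Pkp3* lies below it, while control replicate 1 has the highest *Pkp3* value.

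Among the plakins, *Ppl* had the deepest fall of the 10 genes. *Ppl* encodes periplakin, which connects keratin and vimentin filaments with the plaque and the cell cortex. It read 5.08, 5.40 and 5.50 in long-term EMT cells, against 9.76, 8.87 and 8.83 in control cells. The groups were 3.33 apart, and the long-term EMT mean of 5.33 ± 0.22 (SD, n = 3) was above the background level, against 9.15 ± 0.53 (SD, n = 3) in control cells. *Ppl* was 14.2-fold lower in long-term EMT cells (log2 fold change -3.83, SE 0.27, 95% interval -4.48 to -3.18, limma adjusted p = 0.00274). Without control replicate 1 it was 11.5-fold lower (limma adjusted p = 0.00096). It was the only one of the 10 genes that passed in all 6 fits with 1 array left out.

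*Evpl* encodes envoplakin, the partner with which periplakin forms heterodimers. It read 5.53, 5.75 and 5.55 in long-term EMT cells, against 6.18, 5.72 and 5.71 in control cells, and the groups overlapped. Its log2 fold change was -0.26 (SE 0.15, 95% interval -0.62 to 0.10, limma adjusted p = 0.553), and -0.11 without control replicate 1. *Kazn*, which encodes kazrin, a periplakin-binding protein, fell by 0.84 on the log2 scale (SE 0.07, limma adjusted p = 0.00517), with means of 5.15 ± 0.03 in long-term EMT cells and 5.99 ± 0.04 in control cells (SD, n = 3 each), and it passed in all 6 fits with 1 array left out.

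*Dsp* encodes desmoplakin, the plakin that anchors keratin to every desmosome. Its brighter probe set read 8.79, 8.69 and 8.27 in long-term EMT cells, against 9.86, 9.55 and 9.44 in control cells. The groups were 0.65 apart, and *Dsp* was 2.05-fold lower in long-term EMT cells (log2 fold change -1.03, SE 0.17, 95% interval -1.45 to -0.61, limma adjusted p = 0.0422). This call was fragile. It was lost in each of the 6 fits with 1 array left out, with adjusted p between 0.0572 (without control replicate 1, log2 fold change -0.91) and 0.147 (without long-term EMT replicate 2), while the log2 fold change stayed between -1.14 and -0.88. The second probe set read 5.96, 6.30 and 6.13 in long-term EMT cells, against 6.95, 6.43 and 6.34 in control cells. It had a log2 fold change of -0.44 (SE 0.18, limma adjusted p = 0.367), and -0.255 without control replicate 1 (limma adjusted p = 0.388). Which part of the transcript each probe set covers is not given in the sources used here.

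Sequence around the start site was at hand for *Dsp* and *Jup* in a RefSeq table of 300-base windows (mouse build GRCm38.p6, 250 bases before to 50 after each start). Both are shown because a window was at hand, not for their calls. No window was at hand for *Ppl*, *Perp* or *Pkp2*, the other genes that passed. Whether the motif bears on any call was not tested. The first 270 bases of each window are given 5′ to 3′, of which 20 are transcribed, for *Dsp* on the plus strand at chr13:38151044-38151313 and for *Jup* on the minus strand at chr11:100397771-100398040. Capitals mark the E-box CAGGTG, or CACCTG on the other strand, the motif that Zeb and Snail repressors are known to bind.
Dsp: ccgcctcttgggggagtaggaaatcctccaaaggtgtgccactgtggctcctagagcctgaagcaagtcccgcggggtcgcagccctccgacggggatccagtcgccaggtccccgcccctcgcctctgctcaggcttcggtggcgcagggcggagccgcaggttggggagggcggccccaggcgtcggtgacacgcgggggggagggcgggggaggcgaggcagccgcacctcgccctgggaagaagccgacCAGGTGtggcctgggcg
Jup: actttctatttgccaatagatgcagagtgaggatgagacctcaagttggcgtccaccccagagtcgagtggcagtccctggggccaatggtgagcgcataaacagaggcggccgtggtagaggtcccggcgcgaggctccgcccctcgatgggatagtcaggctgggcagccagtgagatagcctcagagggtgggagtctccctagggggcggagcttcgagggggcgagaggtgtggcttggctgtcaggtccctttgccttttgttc
The *Dsp* window held 1 such motif, which begins at position 4 when the first transcribed base is counted as 1, and the *Jup* window held 0. The motif was present in 20.2% of all 32851 windows in the table, so that a match is common. It is a match of letters, not a measured site.

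*Perp* encodes a tetraspan membrane protein of desmosomes that is a target of p53 and p63. It read 10.52, 10.51 and 10.58 in long-term EMT cells, against 11.83, 11.48 and 11.50 in control cells. The long-term EMT arrays lay within 0.07 of each other and 0.90 under the lowest control array. *Perp* was 2.09-fold lower in long-term EMT cells (log2 fold change -1.07, SE 0.11, 95% interval -1.34 to -0.79, limma adjusted p = 0.00965), and 1.94-fold lower without control replicate 1 (limma adjusted p = 0.00544). It passed in 3 of the 6 fits with 1 array left out, namely those without a control array, and its adjusted p was 0.0527, 0.0649 and 0.0538 without long-term EMT replicates 1, 2 and 3.

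**Figure D3:**
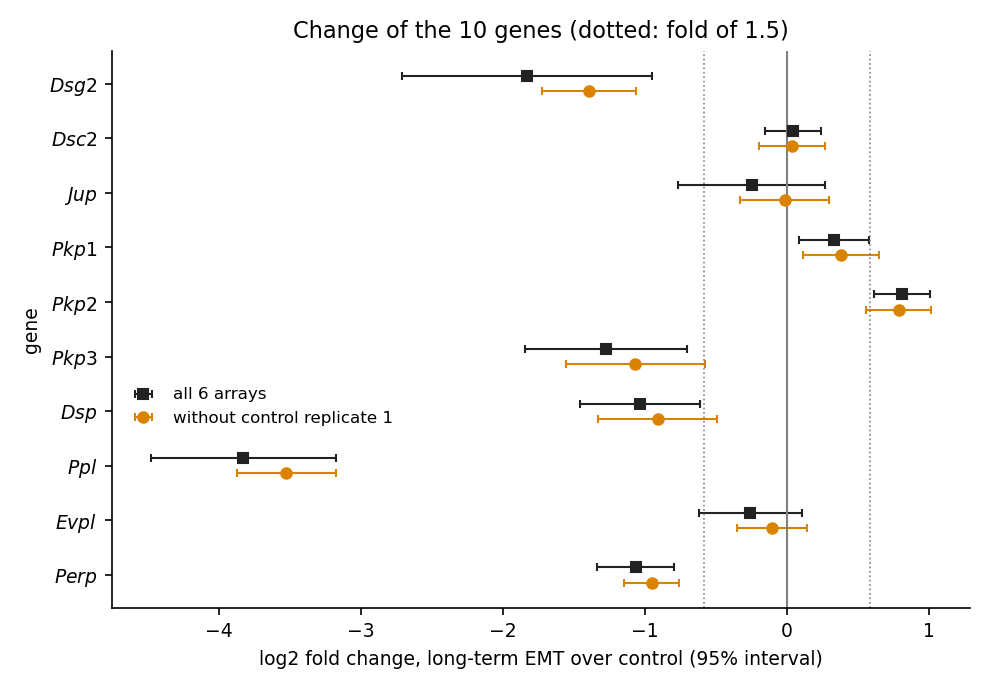
Log2 fold change of long-term EMT over control (horizontal axis) for each of the 10 genes (vertical axis) with its 95% interval from limma, over all 6 arrays (squares) and without control replicate 1 (circles), with dotted lines at a fold of 1.5. *Ppl* lies farthest to the left at -3.83, *Pkp2* is the gene to the right of the dotted lines at 0.81, and the interval of *Dsg2* narrows without control replicate 1.

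The filaments to which desmosomes attach were read from 10 genes. Of these, 2 keratin genes fell and 8 did not pass. *Krt14*, a basal keratin, fell by 2.22 on the log2 scale (SE 0.27, limma adjusted p = 0.0144), and *Krt7*, a simple epithelial keratin, fell by 2.11 (SE 0.12, limma adjusted p = 0.00144). *Krt8* and *Krt18*, the keratin pair of simple epithelium, had log2 fold changes of 0.00 and 0.01 at means of 12.8 and 12.6 in long-term EMT cells, and *Vim* (vimentin) one of 0.10. The call of *Krt14* was lost without long-term EMT replicate 2 (limma adjusted p = 0.0621) or 3 (0.0772) and without control replicate 2 (0.0582). *Krt17* and *Krt19*, which did not pass, read 8.18 and 7.07 in long-term EMT replicate 1 and at most 6.52 and 5.25 on the other arrays. Without control replicate 1 the log2 fold changes of *Krt14* and *Krt7* were -2.18 and -2.08, and both passed. The median log2 fold change of the list was 0.08.

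The other plakins, which reach beyond the desmosome, held 4 measured genes, and 0 passed. The groups did not overlap for 2 of the 4, *Eppk1* below and *Dst* above, beside 11.5% of all genes below and 12.6% above. *Eppk1* (epiplakin) had a log2 fold change of -0.38 (SE 0.09, limma adjusted p = 0.125) and *Dst* (dystonin, a hemidesmosomal plakin) one of 0.37 (SE 0.10, limma adjusted p = 0.173), and neither passed without control replicate 1. *Macf1* and *Plec*, which link filament systems, lay at -0.05 and 0.09. Of 6 measured genes of hemidesmosomes, the keratin anchors to the basement membrane, 0 passed. *Lamb3*, a chain of their laminin ligand, had a log2 fold change of 1.05 (SE 0.27, limma adjusted p = 0.142), which passed without control replicate 1 (1.38, limma adjusted p = 0.00325), and *Itgb4*, the integrin subunit that holds plectin, had one of -0.47 (limma adjusted p = 0.373).

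In adherens junctions, the sister junctions that use the same armadillo proteins, 1 of 7 core genes fell. This was *Cdh1* (E-cadherin), with a mean of 4.48 ± 0.26 in long-term EMT cells, at the background level, against 9.57 ± 0.62 in control cells (SD, n = 3 each). Only 1 of its 3 long-term EMT arrays was above that level. Its log2 fold change was -5.09 (SE 0.31, limma adjusted p = 0.00195), and -4.74 without control replicate 1. The catenins *Ctnna1*, *Ctnnb1* and *Ctnnd1* had log2 fold changes of -0.07, -0.10 and -0.16 and did not pass, as *Jup* did not. Of 6 measured genes listed as partners of plakins and plakophilins, *Kazn* and *Lmo7* fell and 4 did not pass. *Lmo7* is known as an afadin- and actinin-binding protein of adherens junctions rather than of desmosomes, and it fell by 3.10 on the log2 scale (SE 0.14, limma adjusted p = 0.00116). Without control replicate 1 the log2 fold changes of *Kazn* and *Lmo7* were -0.82 and -3.15, and both passed. *Prkca*, a kinase of desmosome turnover, had a log2 fold change of 0.14.

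Transcription factors known to act on junction genes were read as a further list of 10 measured genes, of which 2 rose, 1 fell and 7 did not pass. *Zeb2* and *Zeb1*, repressors of epithelial genes, rose by 1.34 (SE 0.14, limma adjusted p = 0.00938) and 0.74 (SE 0.12, limma adjusted p = 0.0363) on the log2 scale. Both calls were lost without control replicate 2 and without any 1 of the long-term EMT replicates, with limma adjusted p between 0.0530 and 0.0600 for *Zeb2* and between 0.132 and 0.154 for *Zeb1*. *Grhl2*, an activator of epithelial junction genes, fell by 3.15 (SE 0.21, limma adjusted p = 0.00241). Without control replicate 1 the log2 fold changes of *Zeb2*, *Zeb1* and *Grhl2* were 1.20, 0.65 and -2.95, and all 3 passed. *Klf4*, an epithelial factor, had a log2 fold change of -1.83 that did not pass (limma adjusted p = 0.0933) and that was -1.38 without control replicate 1, where it passed. *Trp63* (p63) had one of -0.66 (limma adjusted p = 0.457), and -0.27 without control replicate 1, in which it read 6.50, while control replicates 2 and 3 read 5.35 and 5.29. Whether any of these changes bears on the 10 genes was not tested.

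**Figure D4:**
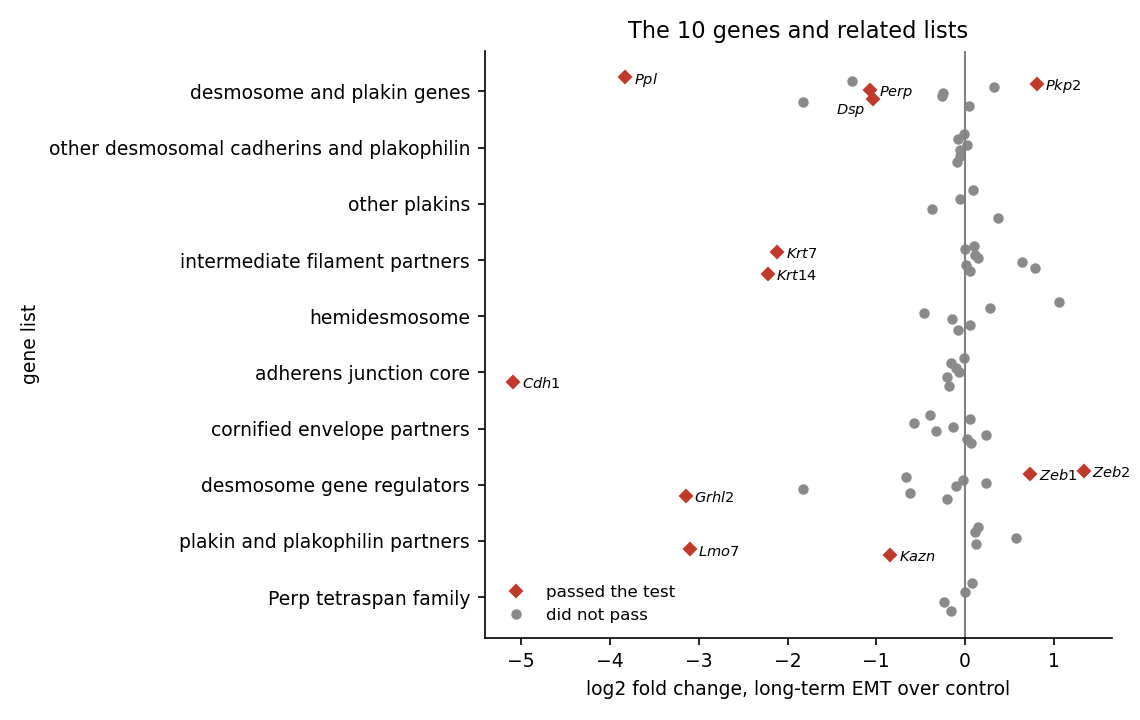
Log2 fold change of long-term EMT over control (horizontal axis) for the measured genes of the desmosome and plakin list and of 9 related lists (vertical axis), with genes that passed the test as named diamonds and the others as grey circles. Most grey circles lie near 0, while *Cdh1*, *Ppl*, *Grhl2* and *Lmo7* lie beyond -3.

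Epithelial identity was checked on 6 marker genes of mammary epithelium. *Cdh1*, *Epcam* and *Ocln* fell, with *Epcam* not past the threshold without long-term EMT replicate 2 or 3 or control replicate 2 (limma adjusted p between 0.0520 and 0.0609), and *Krt8*, *Krt18* and *Krt19* did not pass. The summed log2 level of the list ran between 44.3 and 48.0 in long-term EMT arrays, against 55.3 and 59.5 in control arrays. For 7 fibroblast markers, of which 0 passed, it ran between 40.8 and 42.0 in long-term EMT arrays, against 42.6 and 46.9 in control arrays, highest in control replicate 1. *Dcn* (decorin) there read 7.68 in control replicate 1, against 5.98 and 4.50 in control replicates 2 and 3. The fibroblast list held both signs. *Dcn*, *Pdgfrb* and *Pdgfra* (log2 fold changes -1.76, -1.31 and -0.95) had every long-term EMT array below every control array, as 11.5% of all genes did. *Col1a1* (0.62) had every long-term EMT array above every control array, as 12.6% of all genes did. Of 6 macrophage markers 0 passed, with sums between 34.3 and 35.7 in long-term EMT arrays, against 34.6 and 37.4 in control arrays, highest in control replicate 1. Of these, *Cd68*, *Cd14*, *Csf1r* and *Ptprc* were above the background level on all 6 arrays, with means of 8.92, 8.46, 4.89 and 4.78 in long-term EMT cells, against 8.65, 9.58, 4.85 and 4.76 in control cells. *Adgre1* and *Itgam* were under it in either group. Of 6 endothelial markers *Cdh5* rose (log2 fold change 2.49, limma adjusted p = 0.0232, between 0.0503 and 0.118 without long-term EMT replicate 1 or 2 or control replicate 2 or 3), and *Tie1*, which did not pass, was above the background level on all 6 arrays, with a mean of 4.84 in each group. *Pecam1*, *Kdr*, *Tek* and *Emcn* did not reach that level in either group. The summed level of that list ran between 27.0 and 28.5 in long-term EMT arrays, against 25.2 and 25.3 in control arrays. This difference lay mostly in *Cdh5*, since the log2 fold changes of the other endothelial markers ran from 0.01 (*Tie1*) to 0.15 (*Kdr*). Of 6 basal and myoepithelial markers *Krt14* fell and 5 did not pass, with sums between 35.6 and 36.5 in long-term EMT arrays, against 36.3 and 38.4 in control arrays. The sums of all marker lists but the endothelial one add changes of opposite sign. *Acta2*, which did not pass, had a log2 fold change of 1.52 (SE 0.84, limma adjusted p = 0.529), and 0.53 without control replicate 1. It read 9.61, 9.73 and 9.81 in long-term EMT cells, against 6.22, 8.56 and 9.81 in control replicates 1, 2 and 3. The part of other cell types in the values of the 10 genes was not tested.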

How the data were processed

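Expression was measured on 6 MoGene-1_1-st-v1 arrays, 3 of long-term EMT and 3 of control EpRas cells, with 150 ng of RNA each. The deposited log2 values come from the authors' RMA run, and the submitters' processing notes name Affymetrix Expression Console without a version. RMA makes the arrays' distributions alike, so that a change is relative to the other probe sets. Values were used as deposited, for 35556 probe sets (21218 with 1 gene symbol, 1881 with several, 12457 with none). The genome build behind the array annotation is not given in the sources used here.

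Under R 4.3.3, the lmFit and eBayes functions of limma 3.58.1 were fitted with group as the only term, after being tested on simulated data, and p-values were adjusted by Benjamini-Hochberg across every probe set. To pass, a gene needed a fold above 1.5 and an adjusted p under 0.05. Background levels used the 95th percentile of olfactory receptor probe sets, and promoter motifs a search of both strands.

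The members, the 9 related lists and 5 marker lists were chosen with earlier results of these data known. Named genes are the 10 members and, of each related list, those that passed or, where 0 passed, the 2 with the largest change. *Krt8*, *Krt17*, *Krt18*, *Krt19*, *Vim*, *Macf1*, *Plec*, *Pkp4*, the catenins, *Prkca*, *Klf4*, *Trp63* and the other cadherins and markers were named after their values were seen. The *Lce* genes were named from the study's own list of upregulated genes. The number of arrays limits the precision. Alternatives were the methods' t-test, other priors, thresholds, normalizations, probe set choices, a replicate block and leaving out each array.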

Additional observations from a re-analysis of the deposited data

How the results depend on the processing

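Of 179 values of the 10 genes under alternatives, 148 kept direction and call, 22 lost and 8 gained a call, and *Dsc2*, below background, turned to -0.02 without long-term EMT replicate 3 (range -0.02 to 0.075 over left-out arrays). Over all arrays limma called 3 members lower and 1 higher, and 281 genes lower and 276 higher. The methods' t-test gave 5 members lower, 1 higher, 537 genes lower and 471 higher at an unadjusted p, and 0 members lower, 0 higher, 23 genes lower and 35 higher after Benjamini-Hochberg. Testing against a fold of 1.5 (treat) left 1 member lower (*Ppl*), 0 higher, 75 genes lower and 45 higher, and a fold above 2 left 0 members and 158 genes higher. With dim probe sets left out, or probe sets of a gene averaged, 5 members were lower, with *Dsg2* and *Pkp3* added. Fewer features were tested in both. *Dsp* was lost with quantile normalization again (adjusted p = 0.0544), and *Pkp3* gained with equal array medians (adjusted p = 0.0496). Leaving out 1 array gave 1 to 3 members lower, 0 to 1 higher, 89 to 401 genes lower and 89 to 376 higher, with the fewest without long-term EMT replicate 2. *Pkp2* was also lost without control replicate 2 and long-term EMT replicates 2 and 3. The cause was not tested. The 99th percentile put the background level at 5.09, above the *Dsg2* mean of long-term EMT cells. Deviations from the group means correlated at 0.19, 0.02 and 0.25 for same-numbered arrays, against -0.27 to 0.14 for arrays of different number. These values cannot settle whether same-numbered arrays were paired, since deviations within a group depend on each other. The labels share a number without stating a pairing. With the replicate block 3 members were lower and 1 higher, with 244 genes lower and 212 higher.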

Other observations

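Periplakin and envoplakin are known from the cornified envelope, and a partial list of 8 other genes of that structure was read. Of these 8 genes, 0 passed in long-term EMT cells. The largest differences by value were those of *Tgm1*, the transglutaminase that crosslinks the envelope, with a log2 fold change of -0.57 (SE 0.31, limma adjusted p = 0.521), and of *Tgm5*, with one of -0.39 (SE 0.34, limma adjusted p = 0.729). The SE is the standard error. Both rested on control replicate 1, in which *Tgm1* read 6.31 and *Tgm5* 6.18, against 5.31 and 5.21, and 4.94 and 4.90, in control replicates 2 and 3. Without that array the log2 fold changes were -0.22 and 0.03. The list left out the late cornified envelope (*Lce*) genes, which were not read here. The study reported *Lce1h*, *Lce1i* and *Lce1g* among its most upregulated genes, so that the list does not stand for the whole envelope.

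Perp belongs to the family of PMP22 and the epithelial membrane proteins, and of its 4 measured relatives 0 passed. *Emp2* had a log2 fold change of -0.24 (SE 0.20, limma adjusted p = 0.716) and *Emp1* one of -0.16 (SE 0.08, limma adjusted p = 0.496). The 3 long-term EMT arrays of *Emp1* lay below the 3 control arrays, by a gap of only 0.06, as 11.5% of all genes lay below.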
